A study of Homo sapiens with 90 samples.

Results

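The 10 genes described here are chaperones, folding enzymes and response genes of the endoplasmic reticulum (ER): HSPA5, HSP90B1, DNAJB9, HERPUD1, SDF2L1, XBP1, PDIA4, CALR, CRELD2 and MANF. They were chosen by symbol, matched to the Ensembl identifiers of a gene table of 53893 rows, and all 10 were found and passed the filter on low values in every fit. RNA sequencing had been done on 90 libraries from 6 human cancer cell lines, each grown in 5 arms of 3 libraries. The measurement is an estimated read count for each gene in each library, given below as CPM, the usual scaling of a count by the total of its library.

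Secretory and membrane proteins fold in the ER, and unfolded protein there is sensed by IRE1 (ERN1), PERK (EIF2AK3) and ATF6. IRE1 splices the XBP1 mRNA into the form that encodes an active transcription factor, PERK slows translation and raises ATF4, and ATF6 is cut by the site-1 and site-2 proteases (MBTPS1, MBTPS2) to free a transcription factor. Spliced XBP1 and ATF6 raise transcription of chaperones such as BiP (HSPA5) and GRP94 (HSP90B1), so the mRNA levels of these genes are widely read as a measure of the unfolded protein response.

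Each line was given a drug against the kinase pathway it depends on, THZ1, or both. THZ1 binds CDK7, a kinase of the transcription machinery, covalently and blocks it. A375, a melanoma line, received vemurafenib (a BRAF inhibitor) at 1 uM and THZ1 at 50 nM. A549, a lung adenocarcinoma line, received GSK1120212 (trametinib, a MEK inhibitor) at 200 nM and THZ1 at 150 nM. H3122, a lung adenocarcinoma line with an ALK fusion, received crizotinib (an ALK inhibitor) at 250 nM and THZ1 at 50 nM. N87, a gastric carcinoma line, received lapatinib (an EGFR and HER2 inhibitor) at 100 nM and THZ1 at 25 nM. PC9, a lung adenocarcinoma line with mutant EGFR, received erlotinib (an EGFR inhibitor) at 1 uM and THZ1 at 100 nM. RT112, a bladder carcinoma line, received BGJ398 (an FGFR inhibitor) at 1 uM and THZ1 at 100 nM. The arms were the targeted drug for 7 days, the combination of targeted drug and THZ1 for 48 h, the targeted drug alone for 48 h, THZ1 alone for 48 h, and DMSO at 0.1% for 48 h. There was no 7-day vehicle arm, so time in culture and time on the drug cannot be told apart. Each line had its own targeted drug and 1 THZ1 dose, so a difference between lines cannot be told apart from one of drug or dose. Apart from lung adenocarcinoma, each cancer type is represented by 1 line. Nothing in the labels tells separate cultures from repeat preparations among the 3 libraries of an arm, and a within-line p-value covers the spread between these libraries only, which may be technical.

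Library totals ran from 5.64 to 14.36 M counts, and the 10 genes had between 43 and 52992 counts in every library. All 90 libraries were closest in expression to a library of their own group, and no pair held identical values. One A375 vemurafenib library carries lung as its tissue label, yet lay with its group. Lineage markers fitted the labels in part: SOX10 averaged 986 CPM in A375, where MLANA (1.23 CPM), PMEL (2.01 CPM) and TYR (0.0471 CPM) were low, NKX2-1 averaged 434 CPM in H3122 but 0.117 CPM in A549 and 0.465 CPM in PC9, UPK1B averaged 758 CPM in RT112, and the gastric markers MUC5AC (1.71 CPM), TFF1, TFF2 and CLDN18 (each under 1 CPM) were near absent in N87. HERPUD1 in replicate 1 was above the other 2 libraries of its group in the RT112 BGJ398 7-day, combination, BGJ398 48 h and DMSO arms and in the H3122 crizotinib 7-day arm. These 5 libraries were picked after the data were seen. Leaving out libraries that lie apart narrows the spread, which by itself adds calls. With those 5 libraries left out, all 55 calls on the 10 genes in these 2 lines were kept, and 19 results not called before became called. A result not called in H3122 or RT112 may therefore depend on these libraries.

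The promoters of 7 of the 10 genes hold a match to an ER stress response element (ERSE) or its second form (ERSE-II), sequences known to be bound by ATF6 and spliced XBP1 in other work, and the stretches with a match are shown. No binding, splicing or sensor activity was measured here. The sequences are RefSeq's, on build GRCh38.p14, read in the direction of the gene, and all 10 genes were matched. Within the 250 bases before each start, 3 motifs were searched on both strands: ERSE (CCAAT, then 9 bases of any kind, then CCACG), ERSE-II (ATTGG, then 1 base of any kind, then CCACG) and the core of the unfolded protein response element (TGACGTGG). Capitals mark the fixed bases of the match, and a match on the opposite strand reads as CGTGG before ATTGG or CCAAT.

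HSPA5 (chr9:125241371-125241429, minus strand), with ERSE at 66 to 48 bases before the start, then both HSP90B1 matches (chr12:103930196-103930254, plus strand, 194 to 176 bases before the start, and chr12:103930301-103930359, 89 to 71 bases before it, on the opposite strand):
HSPA5: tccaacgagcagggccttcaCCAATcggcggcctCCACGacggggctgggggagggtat
HSP90B1, distal: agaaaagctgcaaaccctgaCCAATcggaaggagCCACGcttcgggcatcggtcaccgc
HSP90B1, proximal: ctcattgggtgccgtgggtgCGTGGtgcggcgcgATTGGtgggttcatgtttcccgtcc

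XBP1 (chr22:28800583-28800641, minus strand, 52 to 34 bases before the start), CALR (chr19:12938364-12938422, plus strand, 225 to 207 bases before the start, opposite-strand match) and CRELD2 (chr22:49918534-49918592, plus strand, 80 to 62 bases before the start, opposite-strand match) also held ERSE:
XBP1: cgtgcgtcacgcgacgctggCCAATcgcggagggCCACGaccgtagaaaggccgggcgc
CALR: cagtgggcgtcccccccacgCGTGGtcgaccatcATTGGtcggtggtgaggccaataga
CRELD2: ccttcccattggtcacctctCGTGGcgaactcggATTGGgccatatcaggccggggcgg

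HERPUD1 (chr16:56932005-56932055, plus strand, 117 to 107 bases before the start) and SDF2L1 (chr22:21642094-21642144, plus strand, 188 to 178 bases before the start, opposite-strand match) held ERSE-II:
HERPUD1: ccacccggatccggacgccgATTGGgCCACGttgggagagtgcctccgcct
SDF2L1: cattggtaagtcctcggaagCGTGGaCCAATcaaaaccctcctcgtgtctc

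ERSE was found in 5 of the 10 genes and in 25 of 27305 genes with a promoter in the table (0.0916%). ERSE-II was found in 2 of the 10 and in 18 of all genes (0.0659%), and the core TGACGTGG in 0 of the 10 and in 213 of all genes (0.780%). No match of one motif overlapped a match of another in these 10 promoters. DNAJB9, PDIA4 and MANF held none of these letters in this window, which says nothing about the factors themselves. Of the other ER genes listed below, HYOU1, CANX, PDIA6 and ERO1B held ERSE or ERSE-II, and the core TGACGTGG was found in DNAJC10, TXNDC5, VCP, UBE2J1, SEC62, SSR3 and again HYOU1.

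In DMSO, the luminal chaperones were the most abundant of the 10 genes. As CPM per kilobase of the longest coding transcript, averaged over the 6 lines, CALR (calreticulin, a lectin chaperone and calcium store) stood at 419, HSP90B1 (the ER form of HSP90) at 306 and HSPA5 (the ER form of HSP70 and master regulator of the sensors) at 246. PDIA4, a disulphide isomerase, stood at 119 CPM per kilobase and XBP1 at 81.1. The secreted factor MANF stood at 53.2 CPM per kilobase, the HSPA5-complex component SDF2L1 at 49.7, the disulphide isomerase CRELD2 at 27.1, the degradation factor HERPUD1 at 20.6 and DNAJB9, the cochaperone that attaches HSPA5 to IRE1, at 6.63. HERPUD1 would stand at 71.9 by the median length of its transcripts, so its place in this order depends on the length used.

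The lines differed little in the abundant chaperones and more in DNAJB9, XBP1 and SDF2L1. As CPM levels, CALR differed 1.56-fold between its highest line, A375, at 1047 CPM, and its lowest, A549, at 671 CPM, and HSPA5 differed 2.05-fold between A549 at 1306 CPM and RT112 at 636 CPM. DNAJB9 differed 9.37-fold, with 46.8 ± 4.84 CPM in A549 and 4.99 CPM in N87 (SD, n = 3). Its RT112 libraries (4.48 to 12.1 CPM) overlapped those of A375, H3122 and N87, while H3122 and N87 did not overlap each other. XBP1 differed 7.70-fold, with 319 ± 4.27 CPM in H3122, 270 CPM in A549, 136 CPM in RT112, 79.2 CPM in N87, 53.6 CPM in A375 and 41.4 CPM in PC9, and the libraries of no neighbouring pair in that order overlapped. SDF2L1 differed 5.32-fold between H3122 at 76.9 CPM and PC9 at 14.5 CPM, again with no overlap between neighbours. PDIA4 differed 4.84-fold, with 627 CPM in A549 and 129 CPM in N87, and H3122 (336 CPM), RT112 (335 CPM) and PC9 (329.5 CPM) overlapped. HERPUD1 differed 3.93-fold, MANF 3.10-fold, HSP90B1 2.48-fold and CRELD2 2.44-fold. Reads of genes on the opposite strand may be part of some counts, since the sources used here do not say whether counting used strand: ALG12 (36.1 CPM) lies opposite CRELD2, PNPLA8 (31.4 CPM) and THAP5 (19.97 CPM) opposite DNAJB9, and C12orf73 (8.07 CPM) opposite HSP90B1. DNAJB9 and CRELD2 values are uncertain to that extent. The XBP1 count is of the gene and does not separate its spliced form.

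**Figure D1:**
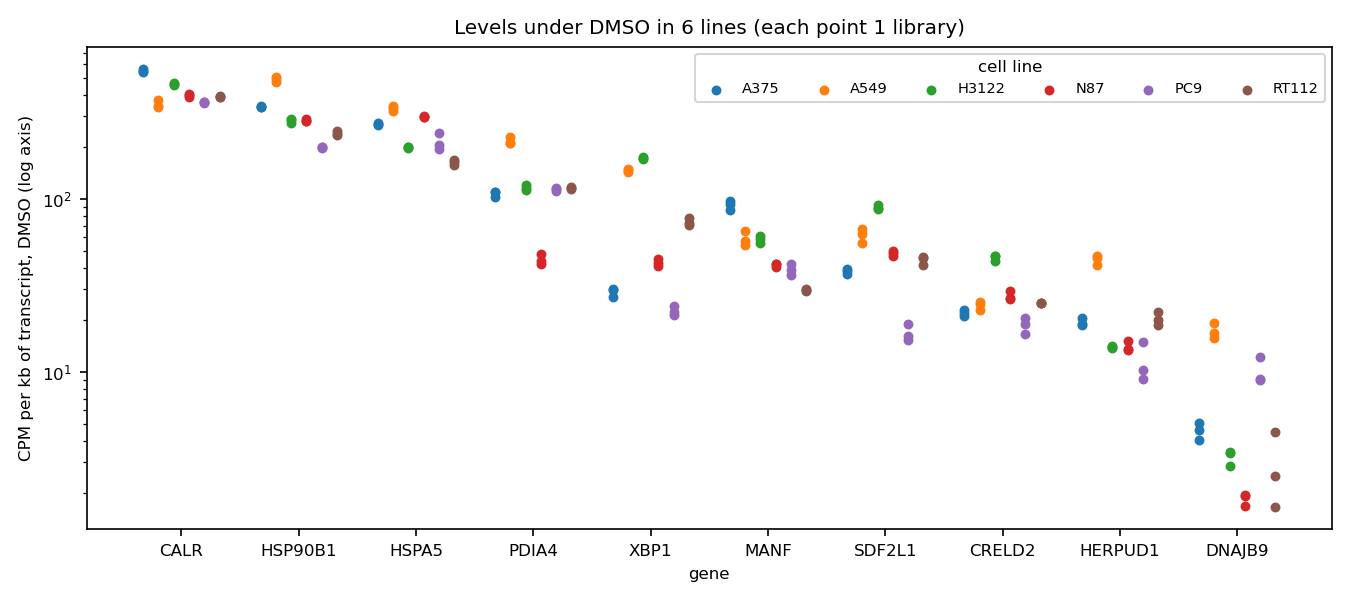
Level of the 10 genes in DMSO, in CPM per kilobase of the longest coding transcript on a log axis; each point is 1 library, coloured by line. Genes run from CALR (419 on average) to DNAJB9 (6.63), and the lines lie farther apart for DNAJB9, XBP1 and SDF2L1 than for CALR.

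The first comparison asked how the targeted drug moved these genes within 48 h. The direction differed from line to line. Erlotinib raised 9 of the 10 genes in PC9 (35.2% of all genes higher) and lowered 1 (32.8% lower), while lapatinib raised 2 in N87 (35.5%) and lowered 8 (35.4%). GSK1120212 raised 1 in A549 (36.8%) and lowered 7 (37.4%), and crizotinib raised 0 in H3122 (22.0%) and lowered 6 (24.1%). Vemurafenib raised 3 in A375 (34.3%) and lowered 3 (32.9%), and BGJ398 raised 3 in RT112 (34.2%) and lowered 4 (35.1%). A call is an adjusted p under 0.05 from edgeR's quasi-likelihood test, with Benjamini-Hochberg adjustment over all genes tested in the line, and the percentages give the share of all those genes called in the same direction. In all, 47 of 60 gene and line pairs were called (18 higher, 29 lower). The median log2 change of the 10 was 0.46 in PC9, -0.77 in N87, -0.53 in A549, -0.42 in H3122, and -0.02 in both A375 and RT112, against 0.05 over all genes across the lines. Across the 6 lines taken as replicates, 0 of the 10 were called, where 37.1% of all 11875 tested genes were, and the median of the 10 was -0.11. The test that the change is equal in all lines was called for all 10 genes and for 93.7% of all genes.

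Summed lineage markers moved with the drug in each line. The urothelium list was at 408 to 434 CPM with erlotinib, against 166 to 192 CPM in DMSO, in PC9, and at 1484 to 1528 CPM with BGJ398, against 944 to 1024 CPM in DMSO, in RT112. The melanocyte list was at 1643 to 1736 CPM with vemurafenib in A375, against 952 to 1026 CPM in DMSO, and the fibroblast and endothelium list at 88.3 to 94.2 CPM with GSK1120212 in A549, against 15.5 to 18.5 CPM in DMSO. In A549 the fibroblast and endothelium list was almost only COL1A1, since COL3A1, CDH5 and VWF were under 1 CPM in every library. The general epithelium list was at 11869 to 12540.4 CPM with lapatinib in N87, against 16531 to 16813 CPM in DMSO, and the lung epithelium list at 690.4 to 762.5 CPM with crizotinib in H3122, against 225 to 233 CPM in DMSO. The H3122 lung list was almost only NKX2-1, at 434 CPM on average over all arms, against 2.1 CPM for SFTPB and 1.83 CPM for NAPSA. The part of these shifts in the changes of the 10 genes was not tested.

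Calreticulin showed the PC9 rise most plainly. CALR had 1388, 1308 and 1355 CPM after erlotinib, against 689, 686 and 682 CPM in DMSO, a log2 change of 1.11 ± 0.03 (SE; edgeR, adjusted p = 9.82e-18). The drug libraries all lay above the DMSO libraries, and the share of all genes without overlap was not counted. CALR also rose in A375 (log2 0.70) and RT112 (0.27), fell in N87 (-0.87), and had values of -0.10 in A549 and -0.11 in H3122 that were not called. HSPA5 rose in PC9 (0.57) and RT112 (0.30) and fell in A549 (-0.78), N87 (-0.68) and H3122 (-0.50), with 0.11 in A375 not called.

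HSP90B1 fell most in N87 and A549. In N87 it had 387, 379 and 381 CPM after lapatinib, against 800.2, 831 and 807 CPM in DMSO, a log2 change of -1.19 ± 0.04 (edgeR, adjusted p = 3.01e-16). In A549 it had 635, 630.4 and 654 CPM after GSK1120212, against 1400.3, 1449 and 1358 CPM in DMSO, a change of -1.11 ± 0.04 (edgeR, adjusted p = 1.22e-15). The groups were far apart in both lines. HSP90B1 rose in PC9 (0.35), fell in RT112 (-0.38), and was not called in A375 (0.00) or H3122 (-0.27).

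SDF2L1 was negative in all 6 lines and was called lower in 5 of them. In N87 it had 15.4, 14.03 and 13.3 CPM after lapatinib, against 43.4, 42.3 and 40.6 CPM in DMSO, a log2 change of -1.66 ± 0.08 (edgeR, adjusted p = 9e-14). The other called changes were -0.62 in H3122, -0.59 in A549, -0.56 in RT112 and -0.35 in PC9, and A375 had -0.13. Across the lines the change was -0.59 ± 0.30 (edgeR, adjusted p = 0.132), which did not pass. The PC9 call was lost without DMSO replicate 4 (log2 -0.27, adjusted p = 0.0523).

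The remaining genes split by line in the same way. MANF and PDIA4 were called lower in 5 lines and higher in PC9, with MANF between -1.09 in N87 and 0.37 in PC9 and PDIA4 between -0.95 in N87 and 0.11 in PC9. The PDIA4 rise in PC9 rests on the scaling between libraries: as CPM the 3 erlotinib libraries (329, 325 and 323) did not lie above the DMSO libraries (337, 329 and 323), and without TMM scaling the change was -0.017. Their falls in RT112 rest on it too. There PDIA4 had 297 to 354 CPM with BGJ398, which overlapped the 332 to 337 CPM of DMSO, and without TMM scaling PDIA4 had -0.038 (adjusted p = 0.51) and MANF -0.086 (adjusted p = 0.264). DNAJB9 rose in A375 (1.03), PC9 (0.89) and N87 (0.50) and fell in H3122 (-0.91) and A549 (-0.83), with 0.59 in RT112 not called. HERPUD1 rose in PC9 (0.76) and N87 (0.67) and was not called elsewhere. CRELD2 rose in A375 (0.68), PC9 (0.33) and A549 (0.15) and fell in N87 (-0.62). XBP1 rose in PC9 (0.54) and RT112 (0.18) and fell in H3122 (-0.74), N87 (-0.54), A549 (-0.47) and A375 (-0.33). Besides SDF2L1 in PC9, 4 of these calls were lost when 1 library was left out. XBP1 in A375 was lost without vemurafenib 48 h replicate 3 or 4 or DMSO replicate 3 or 4 (log2 -0.31 to -0.23, adjusted p 0.0517 to 0.136), and XBP1 in RT112 without BGJ398 48 h replicate 1 or 2 or DMSO replicate 1 or 2 (0.13 to 0.20, adjusted p 0.0504 to 0.146). CRELD2 in A549 was lost without GSK1120212 48 h replicate 3 or 4 or DMSO replicate 2 (0.10 to 0.16, adjusted p 0.0501 to 0.191), and PDIA4 in H3122 without crizotinib 48 h replicate 2 or 4 or DMSO replicate 2 or 3 (-0.34 to -0.30, adjusted p 0.0539 to 0.0817).

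**Figure D2:**
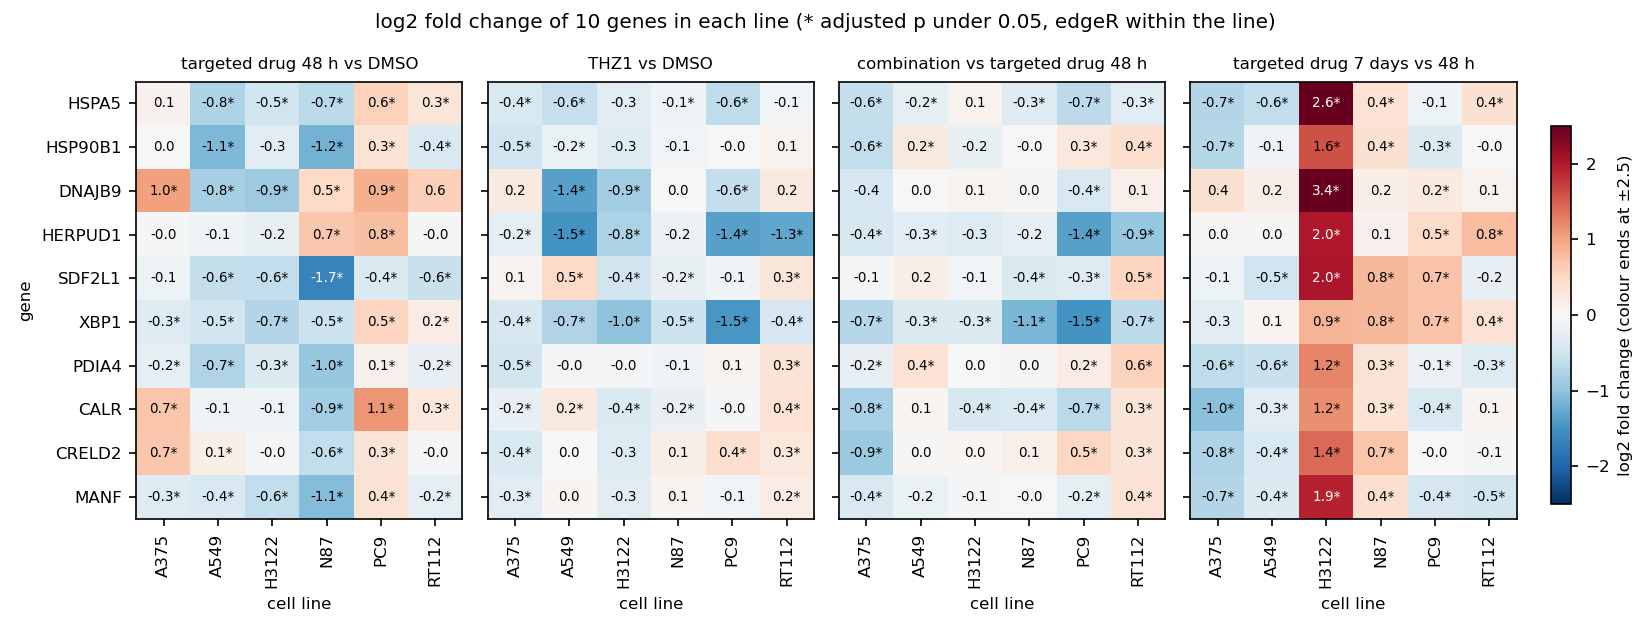
Log2 change of each of the 10 genes (rows) in each line (columns) for each comparison, from the fit of that line's 15 libraries; a star marks an adjusted p under 0.05, and the colour scale ends at 2.5 in either direction. The crizotinib 7-day column of H3122 is positive for all 10 genes, and the XBP1 row is negative in every line in both THZ1 comparisons.

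THZ1 alone lowered XBP1 in every line and HERPUD1 in most. XBP1 was called lower in 6 of 6 lines, as were 1.67% of 12036 genes tested in all lines, and HERPUD1 was negative in 6 of 6 and called in 5. The other genes moved less uniformly over the lines, though some fell more than XBP1 or HERPUD1 in single lines. The counts called were 0 higher (26.5% of all genes) and 8 lower (28.9%) in A375, 2 higher (25.0%) and 5 lower (21.5%) in A549, and 0 higher (10.8%) and 5 lower (12.3%) in H3122. They were 0 higher (14.1%) and 4 lower (16.3%) in N87, 1 higher (26.1%) and 4 lower (27.7%) in PC9, and 5 higher (21.0%) and 2 lower (20.4%) in RT112, in all 36 of 60 pairs with 8 higher and 28 lower. The median log2 change of the 10 was -0.33 for A375, -0.09 for A549, -0.34 for H3122, -0.11 for N87, -0.09 for PC9 and 0.21 for RT112.

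The THZ1 and DMSO libraries of XBP1 did not overlap in any line. The share of all genes without overlap was not counted. Between 23.1% (H3122) and 55.4% (A375) of all genes were called in either direction with THZ1. In PC9 it had 16.8, 15.3 and 15.1 CPM with THZ1, against 40.9, 39.2 and 44.2 CPM in DMSO, a log2 change of -1.46 ± 0.08 (edgeR, adjusted p = 2.91e-12). In H3122 it had 167, 153 and 160.2 CPM with THZ1, against 323, 319 and 315 CPM in DMSO (log2 -1.02 ± 0.09, adjusted p = 3.32e-07). These were the largest changes of XBP1 with THZ1. In A549 it had 169.7, 160.2 and 159 CPM with THZ1, against 276, 272 and 264 CPM in DMSO (log2 -0.74), and in N87 58.4, 56.6 and 57.8 CPM, against 79.2, 75.2 and 83.1 CPM (-0.53). In RT112 it had 108, 108 and 105 CPM with THZ1, against 134, 131 and 143 CPM in DMSO (log2 -0.42), and in A375 39.7, 44.2 and 46.9 CPM, against 50.3, 55.4 and 55.1 CPM (-0.41). The size differed between lines by more than the libraries vary (edgeR, adjusted p = 6.67e-10 for equality over lines).

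HERPUD1, which brings misfolded proteins to the degradation machinery of the ER, fell most in A549, PC9 and RT112. In A549 it had 54.6, 41.3 and 44.8 CPM with THZ1, against 134, 138 and 123 CPM in DMSO, a log2 change of -1.50 ± 0.09 (edgeR, adjusted p = 1.86e-11). In PC9 it had 13.6, 12.5 and 14.6 CPM with THZ1, against 30.04, 26.8 and 43.7 CPM in DMSO (log2 -1.36). In RT112 it had 25.7, 25.0 and 25.7 CPM with THZ1, against 64.9, 55.0 and 58.3 CPM in DMSO (log2 -1.30). No THZ1 library reached a DMSO library in these 3 lines, again without a count of such genes among all genes. The change was -0.79 in H3122, -0.22 in A375 and -0.16 in N87, of which N87 was not called, and the A375 call was lost without THZ1 replicate 2, 3 or 4 or DMSO replicate 2 or 4 (log2 -0.24 to -0.18, adjusted p 0.0643 to 0.116) and without TMM scaling (-0.10, adjusted p = 0.324).

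Across the 6 lines none of the 10 genes was called with THZ1, where 0.0842% of all genes (10 genes) were called by edgeR, 1356 genes had an unadjusted p under 0.05 and DESeq2 called 194. HERPUD1 had -0.86 ± 0.27 (edgeR, adjusted p = 0.165) and XBP1 -0.72 ± 0.23 (adjusted p = 0.186). In a fit of the THZ1 and DMSO arms alone both were called, XBP1 at -0.76 (adjusted p = 0.0174) and HERPUD1 at -0.89 (adjusted p = 0.0326), while 693 genes were called in all. The call across lines thus depended on which arms were in the fit. The change differed between lines for all 10 genes, as for 83.9% of all genes.

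Of the other genes, HSPA5 was called lower in A375, A549, N87 and PC9, between -0.63 in PC9 and -0.12 in N87. In RT112 it had 611 to 652 CPM with THZ1, against 617 to 657 CPM in DMSO, and the groups overlapped (log2 -0.07 as fitted and 0.0035 without TMM scaling). DNAJB9 fell in A549 (-1.35), H3122 (-0.88) and PC9 (-0.60) and was not called in the other 3 lines. CALR fell in H3122 (-0.35), A375 (-0.20) and N87 (-0.19) and rose in RT112 (0.37) and A549 (0.24). SDF2L1 rose in A549 (0.47) and RT112 (0.31) and fell in H3122 (-0.45) and N87 (-0.19). HSP90B1 fell in A375 (-0.50) and A549 (-0.16). PDIA4, CRELD2 and MANF fell in A375 (-0.47, -0.38 and -0.28) and rose in RT112 (0.33, 0.27 and 0.19), and CRELD2 also rose in PC9 (0.42). Besides HERPUD1 in A375, 4 small changes lost their call without 1 library. In N87 these were HSPA5 (-0.12), lost without any 1 of the 3 THZ1 or 3 DMSO libraries (log2 -0.13 to -0.11, adjusted p 0.0513 to 0.115), and SDF2L1, lost without THZ1 replicate 4 or DMSO replicate 1 or 2 (-0.18 to -0.13, adjusted p 0.080 to 0.18). In RT112 they were SDF2L1, lost without THZ1 replicate 2 or 3 or DMSO replicate 2 (0.27 to 0.29, adjusted p 0.0533 to 0.0633), and MANF, lost without THZ1 replicate 2 or 4 or any of the 3 DMSO libraries (0.14 to 0.20, adjusted p 0.0621 to 0.158).

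**Figure D3:**
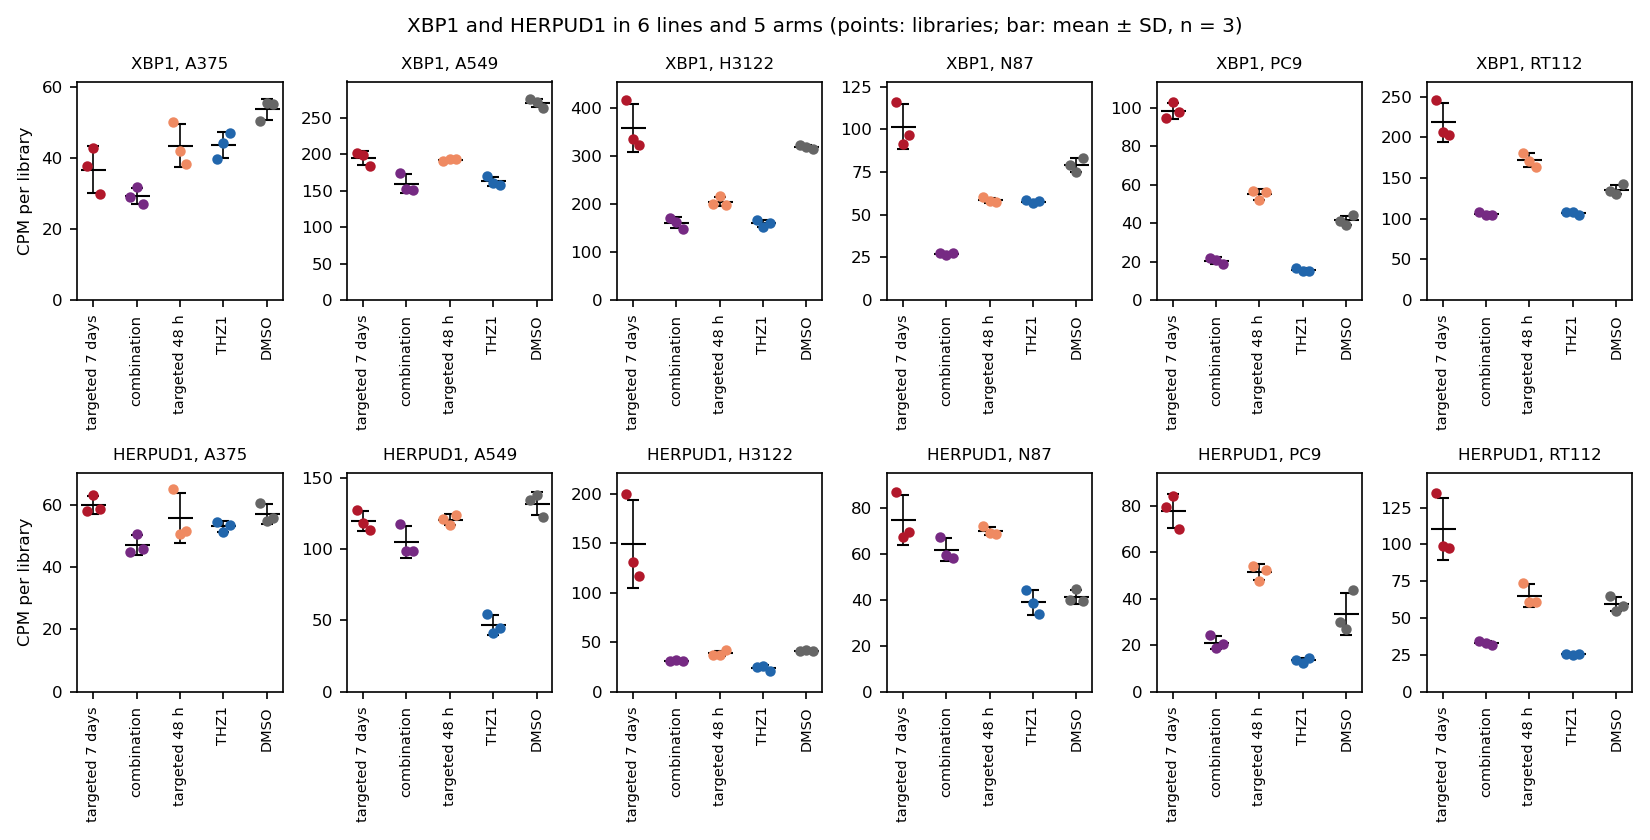
XBP1 (upper row) and HERPUD1 (lower row) in CPM per library, by line and arm; points are libraries and bars the mean ± SD of 3. XBP1 is lower with THZ1 than in DMSO and lower in the combination than with the targeted drug alone in every line. In H3122 after 7 days of crizotinib HERPUD1 lies above all other arms. XBP1 there lies above the 48 h level, with some libraries close to DMSO.

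Adding THZ1 to the targeted drug lowered XBP1 again in every line. XBP1 was the only one of the 10 genes called across the lines, at -0.80 ± 0.23 (edgeR, adjusted p = 0.0375), where 8.03% of all genes were called (3.70% higher, 4.34% lower). It was also called lower in 6 of 6 single lines, as were 1.76% of all genes. Single lines had 0 higher (35.1% of all genes) and 8 lower (33.4%) in A375, 2 higher (20.3%) and 3 lower (20.6%) in A549, and 0 higher (15.3%) and 2 lower (14.3%) in H3122. They had 0 higher (27.0%) and 4 lower (28.8%) in N87, 3 higher (33.4%) and 7 lower (34.9%) in PC9, and 6 higher (32.8%) and 3 lower (31.4%) in RT112, in all 38 of 60 pairs with 11 higher and 27 lower. The across-line call is close to the threshold. It was lost without any one of A375, H3122, N87, PC9 and RT112 (adjusted p 0.0506 to 0.128), without TMM scaling (0.0516), with no filter on low values (0.0842) and with only the 2 arms in the fit (0.0505), and it was kept without A549 (0.0365) and by DESeq2 (0.0114). The change differed between lines for 9 of the 10 genes, all but DNAJB9 (edgeR, adjusted p = 0.191), as for 92.4% of all genes.

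In PC9 XBP1 had 21.9, 21.0 and 18.5 CPM in the combination, against 56.9, 51.8 and 56.1 CPM with erlotinib alone, a log2 change of -1.50 ± 0.07 (edgeR, adjusted p = 1.47e-13). In N87 it had 27.6, 26.3 and 27.6 CPM in the combination, against 60.1, 58.2 and 57.2 CPM with lapatinib alone (log2 -1.14 ± 0.09, adjusted p = 9.93e-10). N87 thus had a larger fall with lapatinib present than without it (-0.53), a difference that was itself called (-0.61). In A375 it had 29.04, 31.7 and 27.0 CPM in the combination, against 50.0, 41.9 and 38.4 CPM with vemurafenib alone (log2 -0.72), and in RT112 108, 105 and 104 CPM, against 181, 171 and 164 CPM with BGJ398 alone (-0.66). In H3122 it had 171, 163 and 149 CPM in the combination, against 201, 216 and 198 CPM with crizotinib alone (log2 -0.35), and in A549 175, 153 and 151 CPM, against 190.3, 194 and 193 CPM with GSK1120212 alone (-0.33). The groups did not overlap in any line. The share of all genes without overlap was not counted here either. Between 29.6% (H3122) and 68.5% (A375) of all genes were called in either direction in this comparison.

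HERPUD1 was negative in all 6 lines in the combination and called in PC9 (-1.36), RT112 (-0.94), A375 (-0.40) and A549 (-0.26). In PC9 it had 24.2, 18.6 and 20.3 CPM in the combination, against 54.1, 47.5 and 52.6 CPM with erlotinib alone, and in RT112 34.4, 32.6 and 31.4 CPM, against 74.0, 60.6 and 60.8 CPM with BGJ398 alone. The A549 call was lost without combination replicate 2 or 3 (log2 -0.21 and -0.22, adjusted p = 0.0619 and 0.0584). HSPA5 fell in 5 lines, between -0.66 in PC9 and -0.21 in A549, and had 0.08 in H3122; its RT112 call (-0.26) was lost without combination replicate 2 or 3 or BGJ398 48 h replicate 1 or 4 (-0.26 to -0.24, adjusted p 0.0592 to 0.0682). CALR fell in A375 (-0.81), PC9 (-0.68), H3122 (-0.39) and N87 (-0.39) and rose in RT112 (0.33). CRELD2 fell in A375 (-0.93) and rose in PC9 (0.53) and RT112 (0.32). HSP90B1 and PDIA4 fell in A375 (-0.62 and -0.20) and rose in RT112 (0.43 and 0.57), PC9 (0.26 and 0.19) and A549 (0.22 and 0.36). MANF fell in A375 (-0.39) and PC9 (-0.23) and rose in RT112 (0.36). SDF2L1 rose in RT112 (0.54) and fell in N87 (-0.35) and PC9 (-0.32), and the PC9 call was lost without combination replicate 1 or erlotinib 48 h replicate 2 (-0.30 and -0.23, adjusted p = 0.0668 and 0.142). DNAJB9 fell in PC9 (-0.38) and was not called elsewhere.

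Whether THZ1 acted alike with and without the targeted drug was tested by the difference of its effects. A549 had 8 of the 10 genes called, 6 higher (15.3% of all genes) and 2 lower (14.8%): DNAJB9 (1.36), HERPUD1 (1.24), XBP1 (0.41), PDIA4 (0.39), HSP90B1 (0.38), HSPA5 (0.36), SDF2L1 (-0.32) and CALR (-0.19). HERPUD1 in A549 shows the pattern, with a log2 change of -0.26 from THZ1 on top of GSK1120212 and of -1.50 from THZ1 alone. The other lines had 1 higher (26.7%) and 2 lower (23.8%) in A375, 0 higher (11.5%) and 3 lower (15.5%) in N87, 2 higher (22.8%) and 1 lower (19.7%) in PC9, 2 higher (4.05%) and 0 lower (3.57%) in H3122, and 2 higher (24.7%) and 0 lower (22.5%) in RT112. In A375 they were CALR (-0.61), CRELD2 (-0.55) and PDIA4 (0.27), in N87 XBP1 (-0.61), CALR (-0.20) and HSPA5 (-0.20), in PC9 CALR (-0.65), HSP90B1 (0.26) and PDIA4 (0.12), in H3122 DNAJB9 (0.95) and XBP1 (0.67), and in RT112 HSP90B1 (0.34) and PDIA4 (0.24). Across the lines none of the 10 was called and 0% of all genes were (edgeR; 256 genes at an unadjusted p under 0.05, 0 by DESeq2). Leaving out 1 library ended 4 of these calls: SDF2L1 in A549 (log2 -0.30 to -0.24, adjusted p 0.0528 to 0.066, without combination replicate 2 or 3, GSK1120212 48 h replicate 3, THZ1 replicate 1 or DMSO replicate 2), HSPA5 in N87 (-0.17, adjusted p = 0.064, without combination replicate 3), CALR in A549 (-0.19 to -0.14, adjusted p 0.0515 to 0.109, without combination replicate 2 or 3, GSK1120212 48 h replicate 2 or 4, THZ1 replicate 1, 2 or 4 or DMSO replicate 2 or 4) and PDIA4 in PC9 (0.10 to 0.12, adjusted p 0.0559 to 0.105, without combination replicate 2 or 3, erlotinib 48 h replicate 3 or 4, erlotinib 7-day replicate 4, THZ1 replicate 2, 3 or 4 or DMSO replicate 2 or 3).

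After 7 days of crizotinib all 10 genes were higher in H3122 than after 48 h. The share called was 10 higher and 0 lower of 10, with a median log2 change of 1.75, in a line where 30.5% of all genes were called higher and 33.4% lower, with a median of -0.01. Together the 10 genes took 0.908% ± 0.214 of all counts at 7 days, against 0.289% at 48 h and 0.338% in DMSO (n = 3 libraries each). In no other line were more than 8 of the 10 called in 1 direction.

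DNAJB9 and HSPA5 changed most. DNAJB9 had 55.3, 48.9 and 47.0 CPM after 7 days of crizotinib, against 5.25, 4.93 and 4.79 CPM after 48 h, a log2 change of 3.38 ± 0.11 (edgeR, adjusted p = 1.25e-14). HSPA5 had 4189, 3042 and 2773 CPM after 7 days, against 559, 605 and 595 CPM after 48 h, a log2 change of 2.56 ± 0.12 (adjusted p = 9.8e-13). In all 7-day libraries both genes were also above the DMSO libraries, which had 9.33, 7.73 and 9.19 CPM of DNAJB9 and 780.4, 766 and 777 CPM of HSPA5. SDF2L1, which works with HSPA5 and its J-domain partners, had 249.9, 194 and 199 CPM after 7 days, against 51.9, 53.2 and 56.1 CPM after 48 h (log2 2.04 ± 0.09), and HERPUD1 had 199.6, 131 and 117 CPM, against 37.3, 37.4 and 41.6 CPM (1.996 ± 0.15).

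MANF, a stress-induced secreted protein, had 218, 145 and 153 CPM after 7 days, against 45.6, 48.5 and 47.4 CPM after 48 h (log2 1.92 ± 0.12). HSP90B1 had 3012, 1569 and 1672 CPM, against 705, 741 and 711 CPM (1.59 ± 0.17). CRELD2 had 282, 145 and 148 CPM, against 73.8, 73.1 and 77.3 CPM (1.41 ± 0.18). Replicate 1 was the highest 7-day library for each of these 3 genes, and the other 2 libraries lay close to each other. PDIA4 had 808, 594 and 510.5 CPM after 7 days, against 278, 289 and 285 CPM after 48 h (log2 1.22 ± 0.12), CALR 2113, 1761 and 1779 CPM, against 859.8, 879.8 and 881 CPM (1.16 ± 0.07), and XBP1 417, 336 and 323 CPM, against 201, 216 and 198 CPM (0.85 ± 0.09, adjusted p = 1.15e-07). XBP1 had 315 to 323 CPM in DMSO, so its 7-day libraries of 323 and 336 CPM lay close to vehicle. No 7-day library overlapped a 48 h library for any of the 10 genes. The share of all genes without overlap was not counted, and 63.9% of all genes were called in either direction in this comparison. Without 7-day replicate 1 all 10 calls were kept, with smaller changes: 3.28 for DNAJB9, 2.33 for HSPA5, 1.89 for SDF2L1, 1.70 for HERPUD1, 1.68 for MANF, 1.19 for HSP90B1, 1.04 for CALR, 0.99 for CRELD2, 0.98 for PDIA4 and 0.71 for XBP1.

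**Figure D4:**
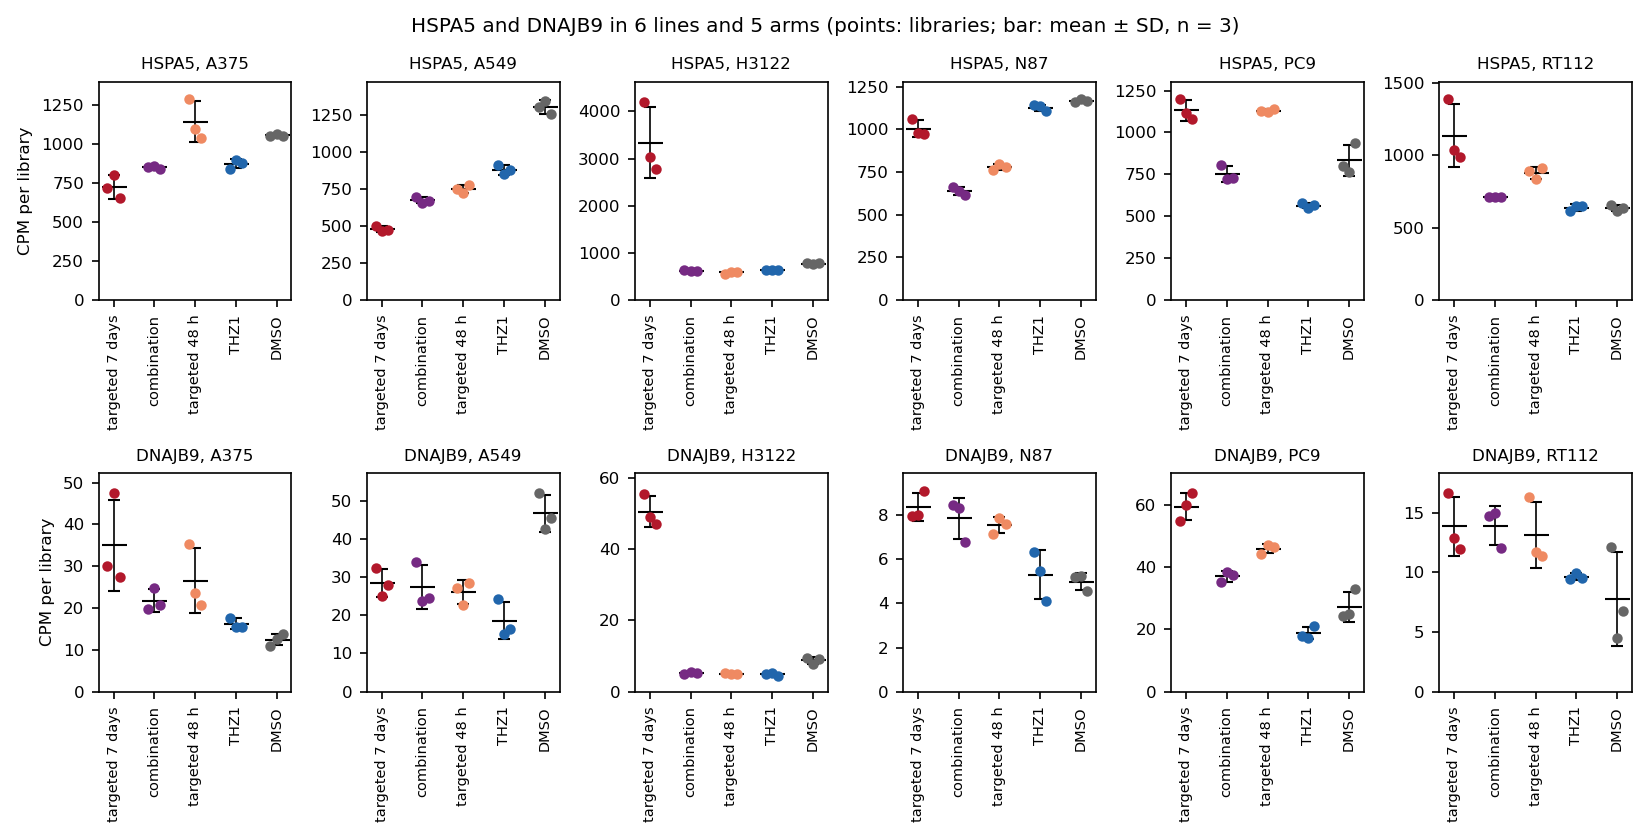
HSPA5 (upper row) and DNAJB9 (lower row) in CPM per library, by line and arm; points are libraries and bars the mean ± SD of 3. In H3122 the crizotinib 7-day libraries (2773 to 4189 CPM of HSPA5, 47.0 to 55.3 CPM of DNAJB9) lie above all other arms of that line.

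Other measures moved with the crizotinib time in H3122. Totals were 12.65 to 13.53 M counts at 7 days, against 10.08 to 12.19 M at 48 h. The summed level of the 3 lung epithelium markers, mostly NKX2-1, was 397 to 521 CPM at 7 days, against 690.4 to 762.5 CPM at 48 h, and that of the 4 general epithelium markers 5505 to 6227 CPM, against 4998 to 5081 CPM. The gastric markers summed to 37.0 to 43.4 CPM at 7 days, against 15.1 to 25.3 CPM at 48 h, and the fibroblast and endothelium markers to 167 to 216 CPM, against 239 to 256 CPM. Melanocyte markers summed to 29.3 to 30.9 CPM at 7 days, against 23.8 to 28.2 CPM at 48 h, urothelium markers to 8.57 to 9.18 CPM, against 5.12 to 5.82 CPM, and blood cell markers to 0.870 to 1.55 CPM, against 0.492 to 1.04 CPM. Their part in the result was not tested. In these bulk libraries, fewer cells with a transcript and less of it in each cell cannot be told apart.

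The other lines moved differently between 7 days and 48 h. N87 had 8 genes higher (22.3% of all genes) and 0 lower (20.3%), A375 had 0 higher (18.6%) and 6 lower (21.4%), and A549 had 0 higher (27.6%) and 6 lower (23.7%). PC9 had 4 higher (25.7%) and 4 lower (27.2%), and RT112 had 3 higher (18.5%) and 2 lower (18.5%). With H3122 that makes 43 of 60 pairs, 25 higher and 18 lower. In N87 the largest were SDF2L1 (0.81), XBP1 (0.80) and CRELD2 (0.69), followed by MANF (0.42), HSP90B1 (0.38), HSPA5 (0.37), CALR (0.34) and PDIA4 (0.31). N87 SDF2L1 had 25.5, 25.2 and 24.4 CPM at 7 days, still below the 40.6 to 43.4 CPM of DMSO. In A375 CALR had 904, 872 and 846 CPM at 7 days, against 1691, 1728 and 1682 CPM at 48 h (log2 -1.04 ± 0.04, edgeR, adjusted p = 1.63e-13), and CRELD2 (-0.76), HSPA5 (-0.74), MANF (-0.74), HSP90B1 (-0.71) and PDIA4 (-0.63) also fell. In A549 HSPA5 had 503, 468 and 471 CPM at 7 days, against 749, 727 and 779 CPM at 48 h (log2 -0.61 ± 0.04, adjusted p = 1.45e-10), and PDIA4 (-0.56), SDF2L1 (-0.50), CRELD2 (-0.39), MANF (-0.35) and CALR (-0.29) also fell. The A549 totals were 6.20 to 6.38 M counts at 7 days, against 9.88 to 11.86 M at 48 h. Its fibroblast and endothelium markers, almost only COL1A1, summed to 176 to 244 CPM at 7 days, against 88.3 to 94.2 CPM at 48 h. Its urothelium markers summed to 121 to 136 CPM, against 266 to 279 CPM. The part of these measures in the A549 changes was not tested. PC9 had XBP1 (0.71), SDF2L1 (0.71), HERPUD1 (0.48) and DNAJB9 (0.25) higher and MANF (-0.42), CALR (-0.37), HSP90B1 (-0.35) and PDIA4 (-0.15) lower. RT112 had HERPUD1 (0.77), HSPA5 (0.38) and XBP1 (0.36) higher and MANF (-0.45) and PDIA4 (-0.33) lower. DNAJB9 in PC9 lost its call without 7-day replicate 4 (0.21, adjusted p = 0.058), and HSPA5 in RT112 kept its call at 0.20 (adjusted p = 0.00637) without 7-day replicate 1.

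Across the 6 lines none of the 10 was called between 7 days and 48 h, and 0% of all genes were (edgeR; 761 genes at an unadjusted p under 0.05, 25 by DESeq2). The median log2 change of the 10 across lines was 0.35, against 0.01 over all genes, and H3122 had the highest change of the 6 lines for 9 of the 10. For XBP1 its value of 0.85 was also the highest, but without 7-day replicate 1 it was 0.71, below N87 (0.80), and without TMM scaling 0.80, below PC9 (0.84). The effect differed between lines for all 10 genes, as for 90.7% of all genes. This comparison shares the 48 h libraries with the comparison of the targeted drug with DMSO, so the changes of the 2 are not independent.

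Wider lists of ER genes were also mostly higher in H3122 at 7 days. All 8 genes of the PERK and ATF4 arm rose, with a median of 1.57: TRIB3 (4.04 ± 0.09), a pseudokinase induced by ATF4, CHAC1 (2.42 ± 0.21), which breaks down glutathione, DDIT3 (1.75), the CHOP transcription factor, SESN2 (1.64), a stress-induced regulator of mTORC1, ATF3 (1.51), PPP1R15A (1.37), which restores translation, DDIT4 (1.24) and ATF4 itself (1.17). Of the 6 sensors, ERN1 (2.35 ± 0.12, edgeR, adjusted p = 8.14e-12), EIF2AK3 (0.46), MBTPS2 (0.46) and ATF6 (0.38) rose, ATF6B fell (-0.27) and MBTPS1 had 0.02. EIF2AK3 kept its call at 0.30 (adjusted p = 0.00362) without 7-day replicate 1, and MBTPS2 lost it without 48 h replicate 2 (0.39, adjusted p = 0.0514). Of 19 other chaperones and folding enzymes 14 rose and 3 fell (median 0.82), of 15 genes of ER-associated degradation 10 rose and 3 fell (median 0.45), and of 15 translocon and export genes 13 rose and 0 fell (median 0.45), where 30.5% of all genes rose and 33.4% fell. Without 7-day replicate 1 the counts were 8 and 0, 4 and 1, 14 and 3, 10 and 3, and 12 and 0, in the same order of lists, and the medians 1.55, 0.33, 0.63, 0.36 and 0.33. HYOU1, a luminal chaperone chosen after its values were seen, rose by 1.85.

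**Figure D5:**
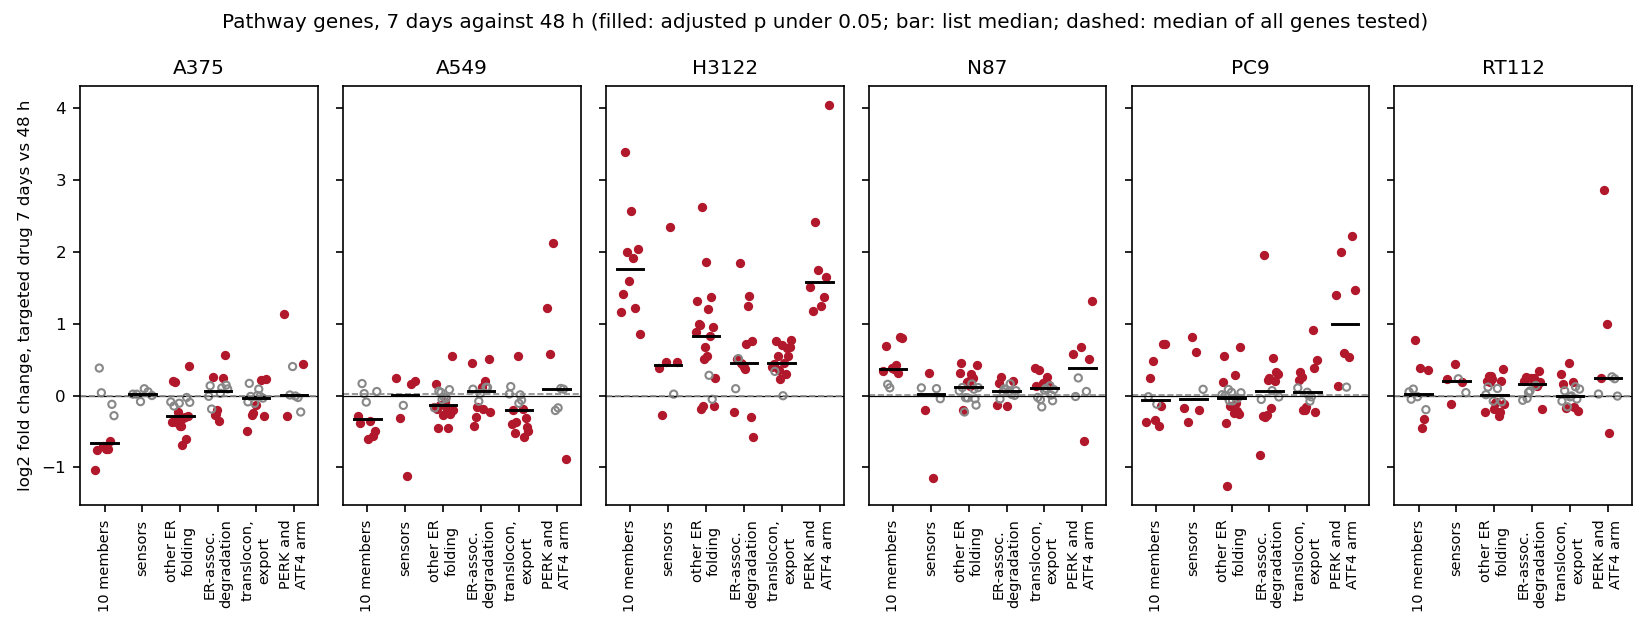
Log2 change from the targeted drug for 7 days against 48 h for the genes of each ER list, by line; points are genes (filled where the adjusted p was under 0.05), bars the list's median and dashed lines the median of all genes tested. In H3122 the PERK and ATF4 arm has a median of 1.57 and the 10 chaperone and response genes one of 1.75.

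The PERK and ATF4 arm also rose in PC9 at 7 days, where 4 of the 10 chaperone and response genes rose and 4 fell. There 7 of 8 were called higher and 0 lower (median 0.99; 25.7% of all genes higher), among them SESN2 (2.21), CHAC1 (2.0) and TRIB3 (1.47), while ATF4 (0.13) lost its call without erlotinib 48 h replicate 3 or 7-day replicate 3 (0.10 and 0.11, adjusted p = 0.085 and 0.0677). The counts elsewhere were 4 higher (22.3% of all genes) and 1 lower (20.3%) in N87, 3 higher (27.6%) and 1 lower (23.7%) in A549, 3 higher (18.5%) and 1 lower (18.5%) in RT112, and 2 higher (18.6%) and 1 lower (21.4%) in A375, and the shares in A375 and A549 lay near those of all genes. CHAC1 rose in RT112 (2.86) and A549 (2.12), TRIB3 rose in N87 (1.31) and A375 (0.44) and fell in A549 (-0.88), and ERN1 rose in PC9 (0.60) and fell in N87 (-1.15) and A549 (-1.12).

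With THZ1 alone the PERK and ATF4 arm fell as a whole in 3 lines. All 8 of its genes fell in A549 (median -1.24; 21.5% of all genes lower), PC9 (-1.25; 27.7%) and RT112 (-1.36; 20.4%), 6 in N87 (16.3%) and 2 in H3122 (12.3%), while in A375 5 rose (26.5%) and 1 fell (28.9%), with a median of 0.72. CHAC1 fell by 2.89 on the log2 scale in A549 and by 4.60 in RT112, TRIB3 had -2.51 in A549, and DDIT3 -1.99 and ATF3 -2.15 in PC9. In A375 CHAC1 rose by 1.47 and DDIT3 by 1.32. ATF3 in RT112 had -1.53, and -0.81 without DMSO replicate 1 (edgeR, adjusted p = 0.00209). In N87, 3 of the 6 calls were lost without DMSO replicate 1, those of CHAC1 (-0.45 in the fit of all libraries, adjusted p = 0.238 without it), DDIT3 (-0.47, 0.116) and DDIT4 (-0.67, 0.0568). CHAC1 in N87 was also lost without DMSO replicate 2, THZ1 replicate 2, 3 or 4, combination replicate 1 or 2, or lapatinib replicate 2 at 48 h or 7 days (adjusted p 0.0517 to 0.155), DDIT3 without DMSO replicate 2 or 4 or THZ1 replicate 3 or 4 (0.0515 to 0.118), and DDIT4 without THZ1 replicate 3 (0.053). In H3122 the 2 calls were ATF4 (-0.42) and CHAC1 (-0.82), and CHAC1 was lost without THZ1 replicate 1 or 2 or DMSO replicate 3 or 4 (adjusted p 0.053 to 0.0849). Across the lines 0 of the 8 were called, with a median of -0.83 against -0.01 over all genes.

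After 48 h of the targeted drug, some genes of these lists were called across the lines, where 37.1% of all genes were. None of the 10 was called. Only among the sensors were most genes called. In the other lists, 15 of 19 chaperones and folding enzymes and 10 of 14 degradation genes were not called. Neither were 11 of 15 translocon and export genes and 5 of 8 genes of the PERK and ATF4 arm. The share called in those lists was near or below that of all genes. Of the 6 sensors 4 rose and 1 fell (18.6% and 18.5% of all genes): ATF6B (0.67 ± 0.13, edgeR, adjusted p = 0.000478), EIF2AK3 (0.63 ± 0.17, adjusted p = 0.00709), MBTPS1 (0.42) and ATF6 (0.31) rose and MBTPS2 fell (-0.35). In degradation 4 of 14 rose and 0 fell, among them OS9 (0.85 ± 0.14, adjusted p = 0.000162) and SEL1L (0.47), which recognise and pass on misfolded glycoproteins, and EDEM2 (0.42). Of 19 chaperones and folding enzymes 3 rose (SDF2 0.55, SIL1 0.53 and ERP44 0.34) and 1 fell (TXNDC5 -0.51). Of 15 translocon and export genes 0 rose and 4 fell, among them SRPRB (-0.54), SSR3 (-0.44) and SEC23B (-0.38). In the PERK and ATF4 arm ATF3 rose (0.93) and CHAC1 (-1.71) and TRIB3 (-1.64) fell. In the combination against the targeted drug alone, SEC61G (0.40) of the translocon rose and PPP1R15A (-0.83) fell, and no other gene of these lists was called across lines. Many of these calls rest on single lines. With 1 line left out, the 48 h calls were lost for MBTPS2 (any line but A375, adjusted p 0.0602 to 0.193), EDEM2 (any line but A549, 0.0545 to 0.197), SIL1 (A375, PC9 or RT112, 0.0542 to 0.0808), ERP44 (the same lines, 0.0799 to 0.129) and TXNDC5 (A549, H3122, N87 or RT112, 0.0607 to 0.134). They were also lost for SRPRB (A549, N87 or RT112, 0.0547 to 0.103), SSR3 (A549, N87, PC9 or RT112, 0.0527 to 0.138), SEC23B (A549 or PC9, 0.0519 and 0.052), CHAC1 (A549, H3122, PC9 or RT112, 0.057 to 0.214) and TRIB3 (PC9 or RT112, 0.0714 and 0.0784). In the combination, SEC61G was lost without A375, N87, PC9 or RT112 (0.056 to 0.218) and PPP1R15A without A375, PC9 or RT112 (0.0882 to 0.111).

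The 10 genes varied together across arms once each line's own level was set aside. Over 30 line and arm points, centred within each line, Pearson's r between pairs of them was positive in 44 of 45 pairs, with a median of 0.62 and a range of -0.16 to 0.91, as a description without a test, since points share lines and the H3122 7-day point stands far out. HSPA5 followed the mean of the other 9 most closely (r = 0.945), and HERPUD1 (0.430) and XBP1 (0.538) least. Among 11300 other genes, the closest to the mean of the 10 were PPIB (r = 0.846), an ER prolyl isomerase, the lectin chaperone CANX (0.845), the disulphide isomerase PDIA3 (0.819), NAB2 (0.803) and SELENOS (0.779). The most opposed were UBAP2 (-0.870), OSTF1 (-0.763) and TXNDC16 (-0.754). In H3122 at 7 days the ER genes among the closest rose, PPIB by 1.37, PDIA3 by 1.2, SELENOS by 1.24 and CANX by 0.88 on the log2 scale. They were picked for following a mean in which that point stands far out, so these rises follow from the choice and are no separate support.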

How the data were processed

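Poly-A or other selection, strand and read length are not given in the sources used here. The authors aligned reads to hg19 with Bowtie2 2.2.1 and estimated expected counts per gene with RSEM 1.2.12, per the submitters' processing notes, and deposited 1 table of 53893 rows. For 47111 of its Ensembl identifiers a symbol was found in a separate gene reference. RSEM shares reads between genes, so between 7.83% and 13.75% of a library's values were not whole (tolerance 1e-06). These estimated counts were rounded. Groups came from the labels (30 groups of 3 libraries; 5.64 to 14.36 M counts). Gene changes were tested with edgeR 4.0.16 (R 4.3.3, limma 3.58.1), quasi-likelihood test, TMM scaling, Benjamini-Hochberg adjustment over all genes tested and a threshold of 0.05. Within a line the 15 libraries of its 5 arms were fitted together after filterByExpr. Across lines the libraries of an arm were summed per line, giving 30 sums fitted with line as a term, for the 11875 genes that reached 1 CPM in no fewer than 3 libraries of each line. Whether a change differed between lines was tested with 1 F test over all 90 libraries. CPM divides by the library total only, while log2 changes also use TMM scaling, so small changes of the 2 can differ. The procedure was tested on simulated counts. Coding lengths and overlaps came from GENCODE v29 (GRCh38), promoters from RefSeq (GRCh38.p14), neither of which is the authors' build.

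The 10 genes and the wider lists were chosen with earlier results of these data known. All 10 were named in every comparison; of other lists, up to 3 called genes per direction across lines were named, and for the sensors and the PERK and ATF4 arm any gene. Shared replicate numbers were checked for pairing: 24 comparisons within lines were checked, 8 shared 3 numbers, and 0 of them had every correlation over 0.1 (-0.11 to 0.14; up to 0.37 in RT112, whose comparisons share 2 numbers), so samples were not paired. Alternatives were the replicate block, DESeq2 1.42.0, no TMM scaling, no filter, only the 2 arms compared, and each library or line left out; leaving out 5 libraries together was added after seeing the data.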

Additional observations from a re-analysis of the deposited data

Results flagged for a closer look

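For each of the 10 genes and 4 comparisons, the 6 line effects were searched for a line far from the rest (Dixon's gap over range, critical value 0.625), a rule under which chance flags about 1 in 20 groups; 4 of 40 were found. After 7 days of the targeted drug against 48 h, H3122 stood apart for DNAJB9 with a log2 change of 3.38 (the other 5 lines 0.09 to 0.38) and for HSPA5 with 2.56 (-0.74 to 0.38). After 48 h of the targeted drug against DMSO, N87 stood apart for SDF2L1 with -1.66 (-0.62 to -0.13). In the combination against the targeted drug alone, A375 stood apart for CRELD2 with -0.93 (0.03 to 0.53).

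The effect differed between lines by the test of the difference for 10 of the 10 genes with the targeted drug at 48 h (93.7% of all genes), 10 with THZ1 (83.9%), 9 with the combination (92.4%) and 10 at 7 days (90.7%), so the share among the 10 is near that of all genes. The effect of THZ1 differed with and without the targeted drug for 8 genes in A549 and for 3 each in A375, N87 and PC9. It differed for 2 each in H3122 and RT112. Only in A549 and H3122 was the share among the 10 clearly above that of all genes called. It was near that of all genes in N87 and below it in A375, PC9 and RT112.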

How the results depend on the processing

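Across lines, the count of the 10 genes called with THZ1 was 2 with only the 2 arms in the fit, against 0 with all arms. For the combination it was 0 without TMM scaling, 0 with no filter and 0 with only the 2 arms, against 1 as reported, and 0 to 1 when 1 line was left out; the cause was not tested. Without TMM scaling the change of PDIA4 in PC9 with the targeted drug at 48 h was -0.017 (0.11 as reported), and that of CRELD2 in RT112 was 0.14 (-0.02 as reported), called at an adjusted p of 0.0298. The number of genes higher and lower among all genes called across lines in the combination was 636 and 383 without TMM scaling, against 439 and 515 with it. Across lines the median of all genes shifted by -0.018 to 0.064 without TMM scaling. Within single lines the shift was over 0.1 in 6 of 30 comparisons: 0.116 for THZ1 and 0.164 for the combination in A375, -0.132 for the targeted drug at 48 h and 0.124 at 7 days in PC9, and 0.161 for the targeted drug at 48 h and -0.124 for the difference of THZ1 effects in RT112.

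Of 185 calls in single lines, 172 were kept without TMM scaling, 179 by DESeq2 and 180 with no filter. The 13 calls lost without TMM scaling were of PDIA4 (48 h in H3122, PC9 and RT112, 7 days in PC9, combination in A375, difference of THZ1 effects in RT112), MANF (48 h in RT112), CRELD2 (48 h in A549), HERPUD1 (THZ1 in A375), HSPA5 (THZ1 in N87), SDF2L1 (THZ1 in N87, combination in PC9) and CALR (difference of THZ1 effects in A549). Each call was checked with each of the 15 libraries of its line left out in turn, and 2703 of these 2775 checks kept the call. Many of these checks left out a library of an arm outside the comparison. By call, some left-out library ended 5 for the targeted drug at 48 h, 5 for THZ1 and 3 for the combination. It ended 1 at 7 days and 4 for the difference of THZ1 effects. With the replicate block, 182 of the 185 calls were kept, 3 were lost and 11 were gained. Those lost were HSPA5 (-0.10, adjusted p = 0.111) and SDF2L1 (-0.16, adjusted p = 0.0766) with THZ1 in N87 and SDF2L1 (-0.31, adjusted p = 0.0602) with the combination in PC9; the calls numbered 48 for the targeted drug at 48 h, 36 for THZ1, 40 for the combination, 44 at 7 days and 25 for the difference of THZ1 effects. Over 24 comparisons, same-numbered libraries correlated at -0.11 to 0.37. The 4 RT112 comparisons (0.002 to 0.37) share 2 numbers each, where 3 were needed to treat samples as paired, and the labels do not say what a number marks. With 3 libraries per arm and 6 lines, changes across lines that differ in size or sign between lines have wide errors. DNAJB9, with the lowest counts of the 10, had the widest spread between libraries in RT112.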
